A study of Rattus norvegicus with 8 samples.

Results

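This account sets the renal cortex of rats that were given a stone-forming treatment together with phlorizin against the renal cortex of rats given the stone-forming treatment without it. The stone-forming treatment, called EG here, lasted 2 weeks and combined ethylene glycol with alfacalcidol. The animals were male Sprague-Dawley rats, 10 weeks old, and the arrays were Clariom S rat arrays. The comparison rests on 2 of the 8 arrays of the series, chosen by their titles: the cortex array of EG with phlorizin and the cortex array of EG. The other 6 arrays, given beside them where they help, are the cortex of phlorizin and of control animals and the outer medulla of the same 4 treatments. There was 1 array for each zone and treatment, so no spread between samples can be estimated and no p-value is given. Each kidney was separated into cortex and outer medulla, so that 1 animal may have given RNA to an array of either zone. Pooling of RNA, and the dose and route of phlorizin, are also not stated in the sources used here. Values are log2 expression values, differences are EG with phlorizin minus EG on that scale unless another pair is named, and a probe set is counted as higher or lower where it lay at least 1 apart, which is 2-fold.

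Phlorizin is a plant glucoside that blocks the sodium-glucose cotransporters SGLT2, which takes up most filtered glucose in the early proximal tubule, and SGLT1, which takes up the rest in the straight proximal tubule. Glucose then leaves the cell through the facilitative transporter GLUT2. Ethylene glycol is oxidised to oxalate, which alfacalcidol, through its vitamin D action on calcium uptake, helps to bring down in the tubule as calcium oxalate crystals. Injured proximal tubule cells are known to lose their transporters and enzymes and to make injury proteins such as KIM-1 (Havcr1), NGAL (Lcn2) and osteopontin (Spp1), while the surrounding tissue takes up macrophages and lays down matrix.

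The cortex array of EG stood apart in its added control RNAs. The 4 poly-A controls, bacterial RNAs added to the sample before labelling, averaged 7.67 on the EG with phlorizin array, 6.42 on the EG array, 8.23 on the phlorizin array and 8.01 on the control array of the cortex. On the EG array 1 of the 4, lys, lay below the background probes. The 4 hybridisation controls, added after labelling, averaged 11.003, 10.39, 11.33 and 11.21 in the same order. The median of the tested probe sets was 9.77 with EG and phlorizin and 9.78 with EG, and background probes averaged 5.55 and 5.53. Scaling to the hybridisation controls would lower every cortex difference of EG with phlorizin minus EG by 0.62, and scaling to the poly-A controls by 1.25. In the outer medulla the poly-A controls differed by 0.17. What made the controls low on the cortex array of EG was not tested. A cortex difference of EG with phlorizin minus EG described as higher by less than 1.25 has the other sign under the poly-A scaling.

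**Figure D1:**
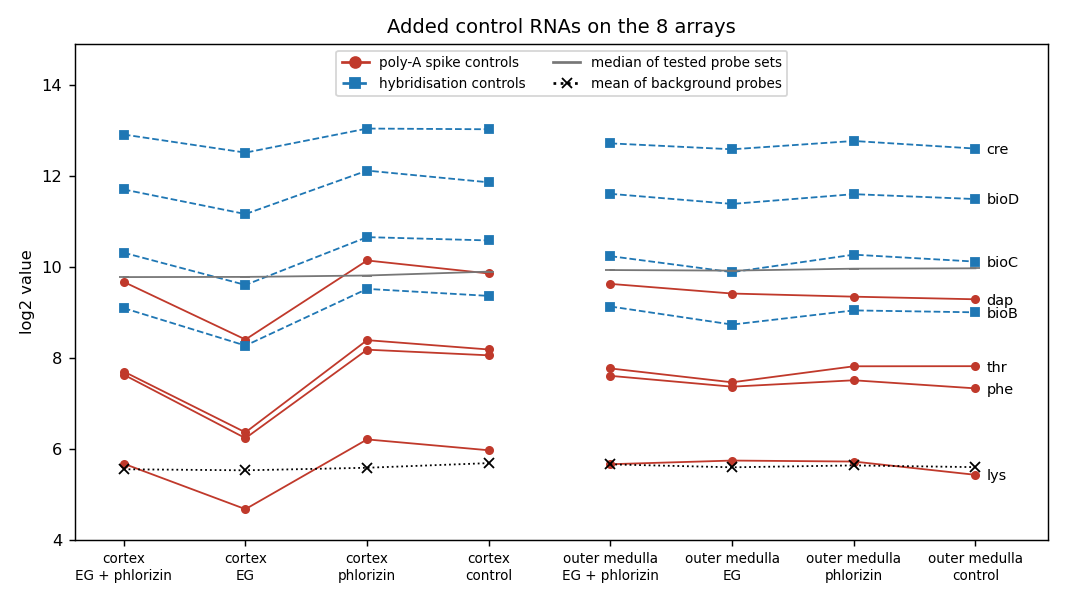
Log2 values (vertical axis) of the 4 poly-A controls (red) and the 4 hybridisation controls (blue) on each of the 8 arrays (horizontal axis), with the median of the tested probe sets (grey) and the mean of the background probes (black). The controls lie lowest on the cortex array of EG, where the poly-A controls averaged 6.42, while the median of the tested probe sets and the background lie nearly level.

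Of 13163 probe sets tested, 967 were higher by at least 1 and 814 lower in the cortex of EG with phlorizin, which is 7.35% and 6.18%. Under the hybridisation scaling the counts were 317 and 3458, and under the poly-A scaling 123 and 9050. The differences had quartiles of -0.40 and 0.37, and 5% lay below -1.10 and 5% above 1.21. A difference of at least 2 was found for 177 higher and 131 lower probe sets, and one of at least 3 for 40 higher and 16 lower. The shares of 7.35% and 6.18% are the background for every gene list below. Counts of 1 or 2 members of a list cannot be set apart from them. Phlorizin minus control, also in the cortex and on 2 arrays that this comparison does not use, gave 86 higher (0.653%) and 66 lower (0.501%), with 5% of its differences below -0.60 and 5% above 0.52. That pair is the nearest the series has to a yardstick for how far 2 cortex arrays lie apart, although it holds the effect of phlorizin as well.

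The 2 arrays of the comparison also enter 2 others with the control array. EG with phlorizin minus control gave 285 higher (2.17%) and 243 lower (1.85%), and EG minus control gave 1272 higher (9.66%) and 1671 lower (12.7%). These share arrays with each other and with the main comparison, so they are given side by side only. Across the tested probe sets, the array of EG with phlorizin correlated with the EG array at r = 0.952, with the phlorizin array at 0.982 and with the control array at 0.981. Between the zones, the 2 arrays of EG with phlorizin correlated at 0.788, the 2 of EG at 0.880, the 2 of phlorizin at 0.778 and the 2 of control at 0.790.

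**Figure D2:**
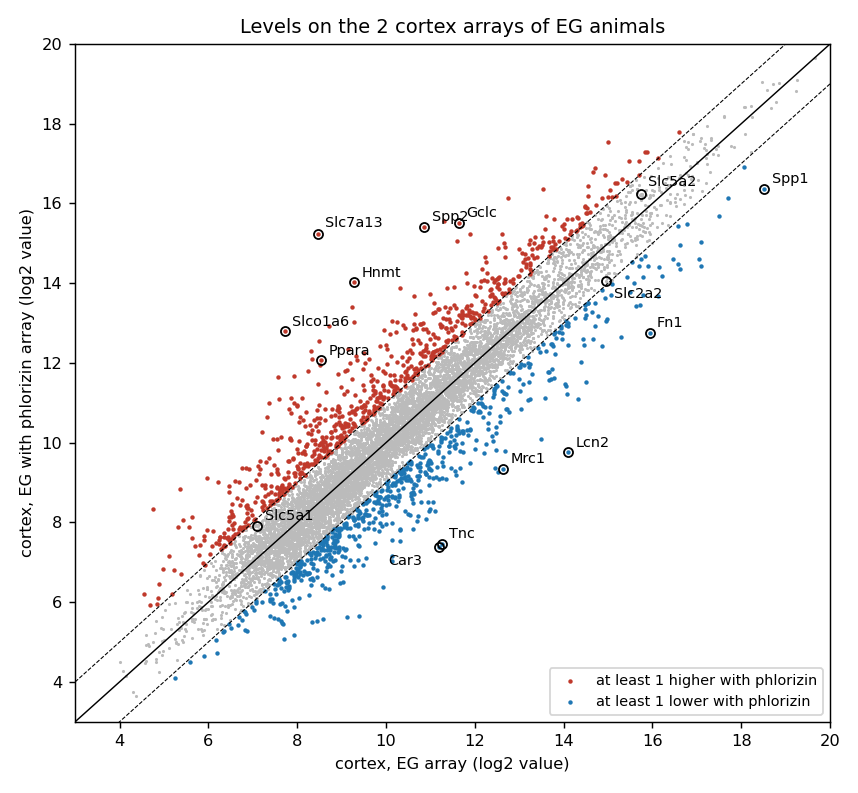
Log2 value of each named gene on the cortex array of EG with phlorizin (vertical axis) against that on the cortex array of EG (horizontal axis), for 9315 genes. The dashed lines mark a difference of 1, red and blue points lie beyond them, and circles mark genes described in the text. Slc7a13 lies farthest above the line of equality, at 15.23 with EG and phlorizin against 8.46 with EG, and Lcn2 farthest below it, at 9.76 against 14.11.

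The genes of SGLT2 and SGLT1 differed by less than 1. Slc5a2, which encodes SGLT2, read 16.25 on the EG with phlorizin array and 15.73 on the EG array, beside 16.25 on the phlorizin and 16.46 on the control array, a difference of 0.52. Slc5a1, which encodes SGLT1, read 7.92 and 7.10, beside 7.70 and 7.90, a difference of 0.81. Both are lowest on the EG array, and both differences are within the shift of 1.25 that the poly-A controls show. Slc2a2, which encodes GLUT2, went the other way, with 14.05 on the EG with phlorizin array and 14.96 on the EG array, beside 14.22 and 14.34 on the phlorizin and control arrays. Slc2a1, the widespread transporter GLUT1, read 10.62 and 9.94, beside 10.48 and 10.23. Of 14 tested genes of the sodium-coupled and facilitative sugar transporter families, 4 were at least 1 higher and 1 was at least 1 lower, and the median difference was 0.45, which both spike scalings turn negative. The 4 were Slc5a8, a lactate and short-chain fatty acid carrier (1.45), Slc5a10, a fructose and mannose carrier (1.71), the myo-inositol carrier Slc5a11 (1.67) and the fructose transporter Slc2a5 (1.27). The lower one was Slc2a3, which encodes the neuronal glucose transporter GLUT3 (-1.09). It was not above background with EG and phlorizin, and against background its difference was -0.78. So the sugar transporter genes that differed by at least 1 did not include Slc5a2 or Slc5a1. Whether phlorizin blocks the products of the other genes was not tested.

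Genes of the straight proximal tubule gave the 2 largest higher differences among named genes, those of Slc7a13 and Slco1a6. Slc7a13, an aspartate, glutamate and cystine carrier of that segment, read 15.23 on the EG with phlorizin array and 8.46 on the EG array, beside 16.37 on the phlorizin and 15.40 on the control array, a difference of 6.76 or 109-fold. Its value with EG and phlorizin is close to the control value, and the EG array stands alone. The organic anion transporter gene Slco1a6 read 12.80 and 7.72, beside 14.37 and 13.49, a difference of 5.08. Slc7a12, a relative of Slc7a13, read 11.64 and 7.56, beside 13.03 and 11.80, a difference of 4.08. Each of these genes was low on 1 cortex array only, that of EG. Of 8 tested markers of the straight proximal tubule, 6 were at least 1 higher and none was at least 1 lower, with a median of 1.58, against -0.04 over all tested probe sets. Gpx3, the secreted glutathione peroxidase, differed by 0.29 and Cyp7b1, an oxysterol hydroxylase, by -0.34.

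Markers of the convoluted proximal tubule differed less. Of 16 tested, 3 were at least 1 higher and none was at least 1 lower, and their median was 0.55, which the hybridisation and the poly-A scaling both turn negative. The 3 were Slc34a3, a sodium-phosphate cotransporter (14.25 with EG and phlorizin, 11.81 with EG, 14.57 with phlorizin and 14.56 in the control), Slc6a19, the main neutral amino acid transporter of the brush border (13.50, 11.08, 14.04 and 14.32), and Slc22a6, the organic anion transporter OAT1 (16.88, 14.71, 16.90 and 16.86). Slc5a12, Gatm, Cubn, Slc7a7 and Slc4a4 lay within 0.22 of 0. The list thus holds genes far apart and genes nearly level on the same 2 arrays. In whole tissue, fewer cells of a type and less RNA per cell cannot be told apart.

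**Figure D3:**
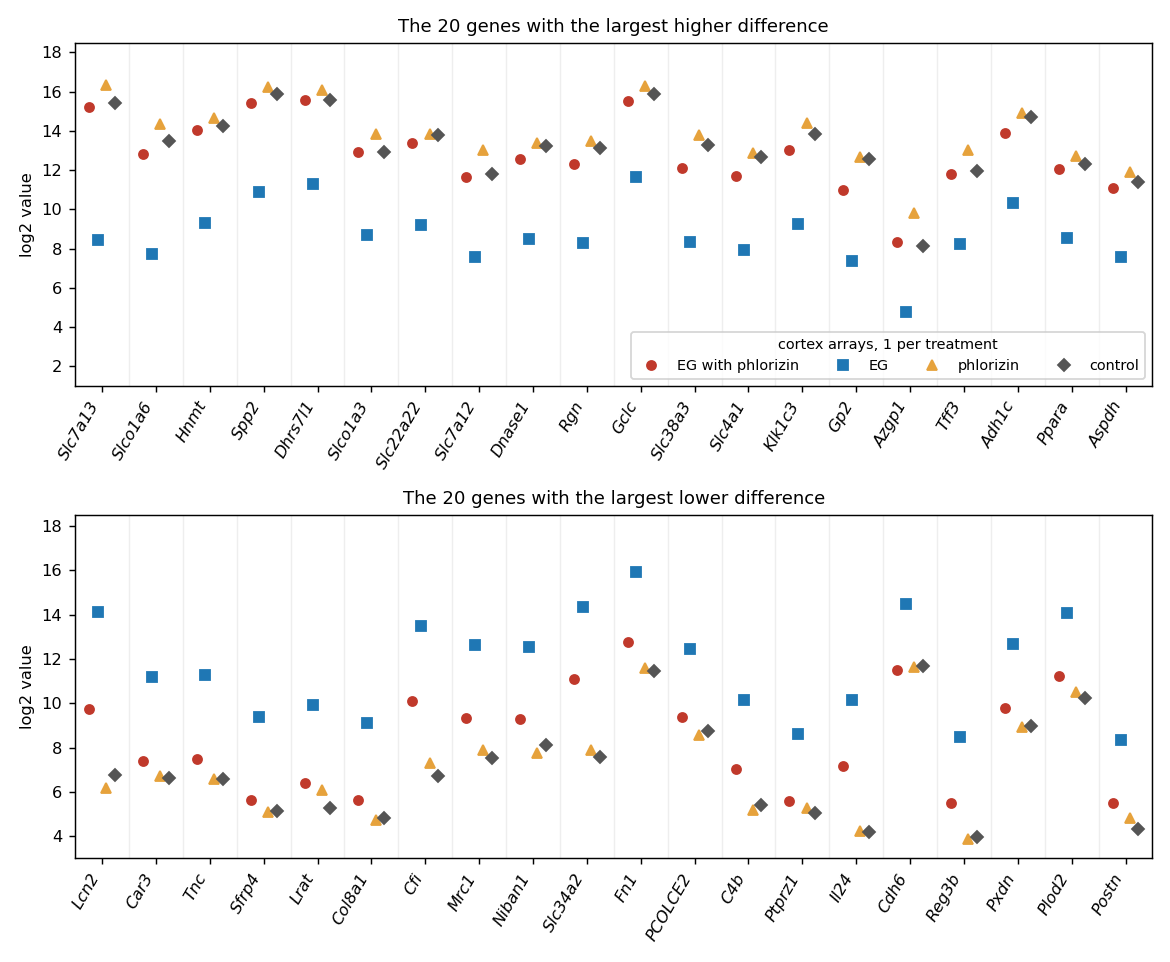
Log2 values on the 4 cortex arrays of the 20 named genes with the largest higher difference (top) and the 20 with the largest lower difference (bottom), ordered by the size of the difference. Red circles are EG with phlorizin, blue squares EG, orange triangles phlorizin and grey diamonds control, 1 array each. The EG array is the lowest of the 4 for every gene in the top panel and the highest for every gene in the bottom panel, a pattern that the choice of genes on that array favours.

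Among the other genes with the largest higher differences, Hnmt, which inactivates histamine by methylation, read 14.03 on the EG with phlorizin array and 9.29 on the EG array, beside 14.68 and 14.25 on the phlorizin and control arrays. Spp2, a secreted phosphoprotein of bone matrix, read 15.41 and 10.87, beside 16.23 and 15.88. Gclc, the catalytic subunit of the enzyme that limits glutathione synthesis, read 15.52 and 11.65, beside 16.28 and 15.86. These 3 genes differed by 4.74, 4.55 and 3.87, and their values with EG and phlorizin lay within 0.47 of the control. Differences between 3.50 and 4.24 were also found for Dhrs7l1, Slco1a3, Slc22a22 (a prostaglandin transporter in the mouse), the secreted nuclease Dnase1, the gluconolactonase Rgn, the kallikrein Klk1c3, the trefoil peptide Tff3, Aspdh and the class I alcohol dehydrogenase Adh1c, whose enzyme family takes the first step of ethylene glycol oxidation. Adh1c read 13.88 with EG and phlorizin and 10.33 with EG, beside 14.91 and 14.71. Azgp1, a secreted zinc-binding glycoprotein, was not above background on the EG array and read 8.33 with EG and phlorizin, a difference of at least 2.81.

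Genes that break down and make amino acids were higher in most cases. Of 30 tested, 22 were at least 1 higher and none was at least 1 lower, with a median of 1.53. The list holds several steps of the kynurenine route of tryptophan breakdown. Haao read 12.73 on the EG with phlorizin array and 10.09 on the EG array, beside 13.13 and 12.82 on the phlorizin and control arrays. Kynu read 12.44 and 9.99, beside 12.81 and 12.87, and Kmo read 14.88 and 12.53, beside 14.70 and 14.73. In each of these enzymes the EG array was the only one below the rest by more than 2. Cbs (2.47) and Cth (1.56), which turn homocysteine into cysteine, Dmgdh (2.48) and Sardh (1.54), which strip methyl groups from glycine derivatives, and both tested subunits of the branched-chain keto acid dehydrogenase (Bckdha 1.46, Bckdhb 2.32) were also at least 1 higher. The creatine-pathway enzyme Gatm (0.16) and the transaminase Agxt2 (-0.10) lay near 0.

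Of 26 tested transporters of organic ions and drugs, 14 were higher by at least 1 and 2 lower, with a median of 1.0. The 2 lower ones are near the 6.18% of all probe sets. Slc22a2, the organic cation transporter OCT2, read 14.66 on the EG with phlorizin array and 12.23 on the EG array, beside 14.91 and 14.85. Slc22a12, the urate transporter URAT1, read 12.09 and 9.62, beside 12.58 and 12.55, and Slc13a2, the citrate and succinate carrier, read 13.35 and 11.18, beside 14.26 and 13.66. The differences were 2.44, 2.47 and 2.18. The 2 lower genes were the efflux pump Abcb1b (-2.05) and Slco3a1 (-1.31), while the related pump Abcb1a was 1.34 higher. Of 23 tested amino acid transporters, 8 were at least 1 higher and none was at least 1 lower, with a median of 0.86. Under the poly-A scaling both medians are below 0, at -0.25 and -0.39.

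Ppara, the nuclear receptor that drives fatty acid oxidation genes, read 12.08 on the EG with phlorizin array and 8.55 on the EG array, beside 12.72 on the phlorizin and 12.34 on the control array, a difference of 3.53. Of 26 tested genes of fatty acid oxidation, peroxisomes and ketone bodies, Ppara included, 13 were at least 1 higher and 1 was at least 1 lower, with a median of 1.02. Among them were Acadm, the medium-chain acyl-CoA dehydrogenase (13.33 with EG and phlorizin, 11.88 with EG, 13.68 with phlorizin and 13.79 in the control), and the peroxisomal enzymes Ehhadh (1.71) and Acaa1a (1.73). Cpt1a, the gate of fatty acid entry into mitochondria, differed by 0.66, and Acadl by 0.00. The lower gene was Ucp2, a mitochondrial carrier, with 13.46 with EG and phlorizin and 15.73 with EG, beside 12.22 and 12.44. All 30 tested genes of the respiratory chain had a difference above 0, between 0.46 and 1.79, and 9 were at least 1 higher. Their median of 0.87 lies above the shift of the hybridisation controls and below that of the poly-A controls, so that the poly-A scaling turns it negative. The same holds for the fatty acid list, whose median becomes -0.23.

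Of 11 tested genes of glucose and ammonia production, 4 were at least 1 higher and none was at least 1 lower, with a median of 0.94, which is -0.31 under the poly-A scaling. Slc38a3, the glutamine carrier that feeds ammonia production, read 12.10 on the EG with phlorizin array and 8.33 on the EG array, beside 13.80 and 13.30 on the phlorizin and control arrays. Pck1, the first committed enzyme of glucose synthesis, read 16.16 and 15.00, beside 17.48 and 17.44. For Slc38a3 and Pck1 the array of EG with phlorizin also lay below the control, with differences of -1.20 and -1.28 from it. Slc37a4, the glucose-6-phosphate transporter of the endoplasmic reticulum, differed by 2.37. Of 25 tested genes of glycolysis, fructose use and hypoxia, 5 lay at least 1 above 0 and 2 at least 1 below, beside 7.35% and 6.18% of all probe sets. Khk, which phosphorylates fructose, differed by 2.78.

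**Figure D4:**
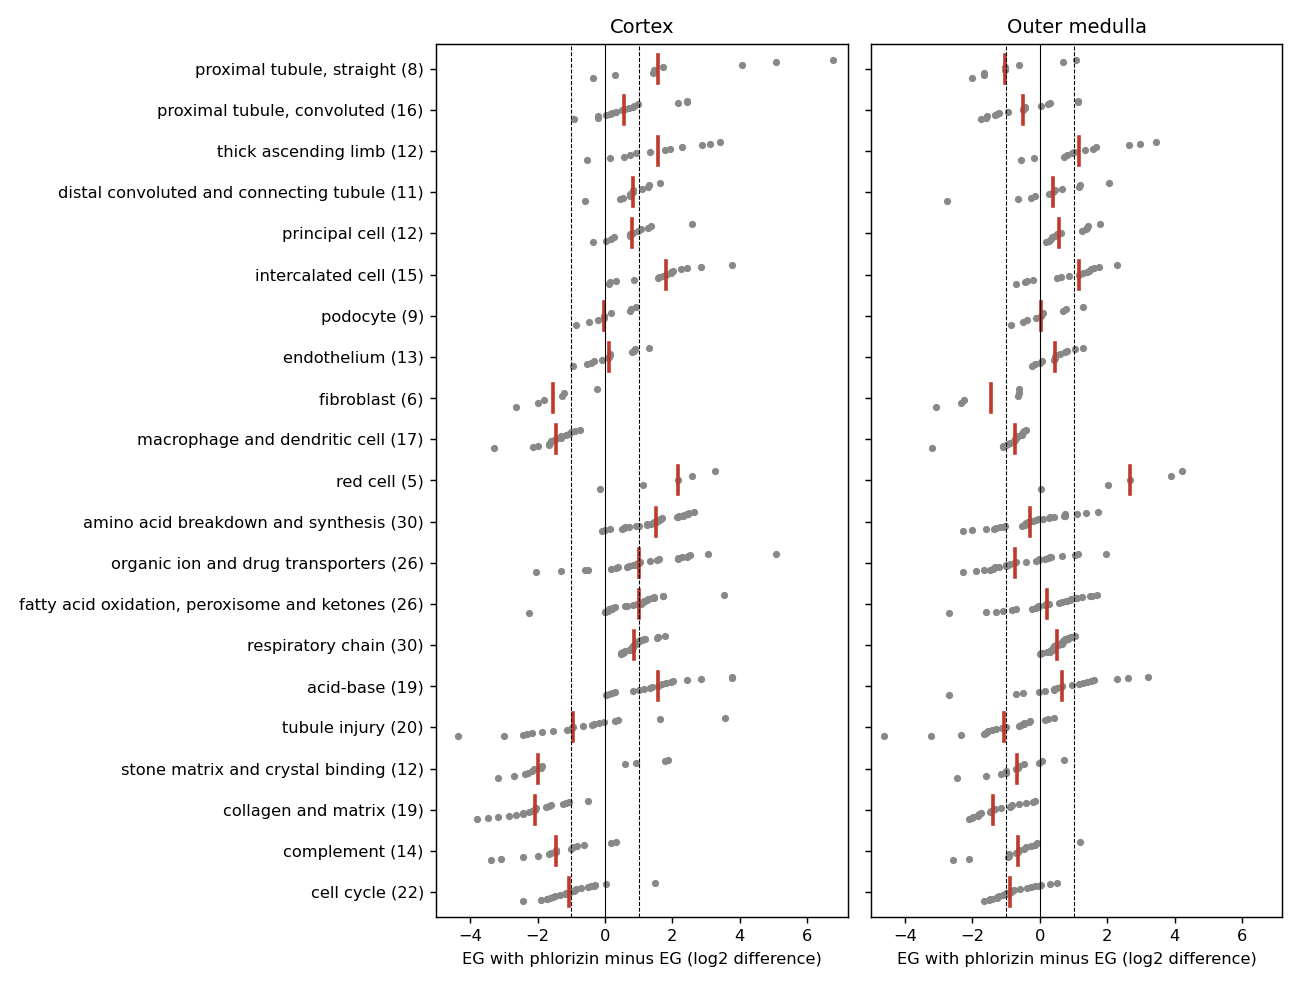
Difference of EG with phlorizin minus EG (horizontal axis, log2) of each tested member (grey points) of 21 gene lists (vertical axis, number tested in brackets), for the cortex (left) and the outer medulla (right), with the list median in red and dashed lines at a difference of 1 either way. In the cortex the tubule and metabolic lists lie to the right of 0 and the fibroblast, macrophage, matrix and complement lists to the left. Poly-A scaling would put the medians of the convoluted, distal, principal cell, endothelium, organic ion, fatty acid and respiratory chain lists left of 0. The straight proximal tubule list has its median at 1.58 on the left and at -1.04 on the right.

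Segments beyond the proximal tubule followed the same direction. Of 12 tested markers of the thick ascending limb, 7 were at least 1 higher and none was at least 1 lower, with a median of 1.56. Egf, the growth factor precursor made by the thick ascending and distal tubule, read 16.14 on the EG with phlorizin array and 12.74 on the EG array, beside 16.58 and 16.85 on the phlorizin and control arrays. Umod, which encodes uromodulin, the most abundant urine protein, read 16.72 and 14.94, beside 17.46 and 17.33, and the cotransporter gene Slc12a1 differed by 0.93. Gp2, a relative of uromodulin, read 10.99 and 7.37, beside 12.68 and 12.57. In these genes the array of EG with phlorizin lay between the EG array and the 2 arrays without EG. Of 11 tested markers of the distal convoluted and connecting tubule, 4 were at least 1 higher and none was at least 1 lower, with a median of 0.84. Of 12 markers of principal cells the counts were 4 and none, with a median of 0.80. The poly-A scaling puts both medians below 0.

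Intercalated cells, which secrete acid or bicarbonate in the collecting duct, gave the highest median of the tubule cell lists. Of 15 tested markers, 11 were at least 1 higher and all 15 had a difference above 0, with a median of 1.80. Slc4a1, the chloride-bicarbonate exchanger of acid-secreting cells, read 11.69 on the EG with phlorizin array and 7.93 on the EG array, beside 12.88 and 12.70 on the phlorizin and control arrays. Slc26a4, which encodes pendrin of bicarbonate-secreting cells, read 12.17 and 9.32, beside 12.50 and 12.89. Atp6v1b1, a subunit of the proton pump, read 12.87 and 10.43, beside 12.91 and 13.22. Genes of acid secretion and of bicarbonate secretion were thus both low on the EG array. The carbonic anhydrase Car2 (0.11) and the transcription factor Foxi1 (0.32), on which intercalated cells depend, differed little. Of 19 tested genes of acid-base transport, 14 lay at least 1 above 0 and none at least 1 below, with a median of 1.57. Slc4a1 is also a red cell protein, and of 5 tested red cell genes 4 were at least 1 higher, with a median of 2.16, or 1.14 with no filter on low values. Hba-a1 read 13.36 and 11.20, beside 13.58 and 13.94. The red cell list averaged 9.48 with EG and phlorizin, 7.69 with EG, 9.30 with phlorizin and 9.89 in the control, and its part in the difference of Slc4a1 was not tested.

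Genes of tubule injury were lower, and most of those named here stayed above the control. Lcn2, which encodes the injury marker NGAL, read 9.76 on the EG with phlorizin array and 14.11 on the EG array, beside 6.16 on the phlorizin and 6.76 on the control array. The difference of -4.35 was the largest lower one among named genes, at 20.5-fold. Havcr1, which encodes KIM-1, read 14.60 and 17.05, beside 7.92 and 7.82, a difference of -2.44. Havcr1 with EG and phlorizin was thus lower than with EG and still 6.78 above the control. Of 20 tested injury genes, 9 were lower by at least 1 and 2 higher, with a median of -0.95. Cdh6, a cadherin of the developing proximal tubule, read 11.51 and 14.50, beside 11.64 and 11.67, so that it lay near the control. Clu, a secreted chaperone, differed by -0.94, and Vcam1, an adhesion molecule, by -0.32. The 2 higher genes were Tff3 (3.56) and Prom1, a membrane protein of tubule progenitor-like cells (1.63).

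Genes of the stone matrix, the proteins found in stones or on crystal-binding cells, were lower in most cases. Of 12 tested, 8 were lower by at least 1 and 2 higher, with a median of -1.99, or -0.51 with no filter on low values. Spp1, which encodes osteopontin, a major protein of calcium oxalate stones, read 16.37 on the EG with phlorizin array and 18.52 on the EG array, beside 10.50 and 10.10 on the phlorizin and control arrays. Cd44, a receptor for osteopontin and hyaluronan, read 9.01 and 11.72, beside 6.83 and 7.41, and Mgp, an inhibitor of calcification, read 14.35 and 16.63, beside 12.83 and 13.09. All 3 lay between the EG array and the arrays without EG, Spp1 6.27 above the control. The annexins Anxa1, Anxa2 and Anxa5, which can bind crystals on cell surfaces, differed by -1.89, -1.88 and -2.10. The 2 higher genes were Umod (1.78) and the phosphatase Alpl (1.86), while Fetub, a fetuin, and Enpp1, which makes pyrophosphate, differed by 0.60 and 0.92.

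The matrix genes were lower with few exceptions. Of 19 tested collagens and matrix proteins, 18 were at least 1 lower, none was at least 1 higher, and the median was -2.08. Col8a1 and Postn among them passed the filter only on arrays of EG without phlorizin, which favours a lower difference. Tnc, the matrix glycoprotein tenascin C, read 7.46 on the EG with phlorizin array and 11.27 on the EG array, beside 6.59 and 6.57 on the phlorizin and control arrays. Fn1, fibronectin, read 12.75 and 15.94, beside 11.60 and 11.47, and Col1a1, the main fibrillar collagen chain, read 11.43 and 14.06, beside 10.38 and 10.28. With EG and phlorizin, Tnc, Fn1 and Col1a1 stood 0.89, 1.28 and 1.15 above the control. Postn, periostin, was not above background on the EG with phlorizin array and read 8.34 on the EG array, at least 6.94-fold lower. The remaining gene, Col5a1, differed by -0.51. Plod2, a lysyl hydroxylase of collagen cross-links, and Pxdn, the peroxidasin that cross-links basement membrane collagen, differed by -2.84 and -2.87. Of 15 tested proteases and inhibitors, 10 were at least 1 lower, among them Mmp2 (-2.06), Mmp14 (-2.36) and the inhibitor Timp1 (-1.88), while Plau, the urokinase gene, differed by 0.00.

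Of 19 tested genes of the TGF-beta, activin and BMP families, 6 were lower by at least 1 and 2 higher. Among the ligands, Inhba, the activin A subunit, read 7.78 on the EG with phlorizin array and 9.84 on the EG array, beside 6.83 and 6.19. Tgfb1 and Tgfb2 differed by -1.38 and -1.59, and Tgfb3 by -0.33. Bmp4, a ligand of the other branch of the family, was 1.77 higher, and Bmp7 differed by 0.21. Ccn2, a common target gene of TGF-beta, differed by -0.94, and the inhibitors Smad6 and Smad7 by -0.39 and 0.61.

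Markers of fibroblasts and of macrophages moved with the matrix genes. Of 6 tested fibroblast markers, 5 were at least 1 lower, with a median of -1.54. The list averaged 11.52 on the EG with phlorizin array and 13.05 on the EG array, beside 10.85 and 10.65. Its member Col14a1 passed the filter only on arrays of EG without phlorizin, which favours a lower difference. Of 17 tested macrophage and dendritic cell markers, 14 were at least 1 lower and all 17 had a difference below 0, between -3.29 and -0.72. That list averaged 9.84 and 11.35, beside 8.99 and 9.07. Its member Cd163 also passed the filter only on arrays of EG without phlorizin. Mrc1, the mannose receptor of tissue macrophages, read 9.35 and 12.64, beside 7.87 and 7.53, and Csf1r, the growth factor receptor that macrophages depend on, read 9.35 and 10.97, beside 8.07 and 8.05. Both markers were highest on the EG array and above the control with EG and phlorizin. The part of these cells in the matrix and complement values was not tested. None of the neutrophil markers passed the filter on low values, and of the lymphocyte markers Cd4 (-1.59), which rat macrophages also carry, and Ptprc (-0.72) did.

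Complement genes were at least 1 lower in 8 of 14 tested cases, with a median of -1.45. Cfi, the protease that inactivates C3b, read 10.10 on the EG with phlorizin array and 13.49 on the EG array, beside 7.28 and 6.70 on the phlorizin and control arrays. C3, the central component, read 7.11 and 9.55, beside 6.20 and 6.53, and C4b read 7.04 and 10.13, beside 5.19 and 5.42. C3 and C4b passed the filter only on arrays of EG without phlorizin, which favours a lower difference. The complement genes at least 1 lower thus include activating components and an inhibitor of the cascade. The C1q chains C1qa, C1qb and C1qc, which are also macrophage markers, differed by -1.44, -2.0 and -1.66. The membrane regulators Cd46 (0.19) and Cd55 (0.33) had differences above 0.

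Of 18 tested genes of the acute phase and of IL-6 type signalling, 10 were at least 1 lower, with a median of -1.09. Il24, a cytokine of the IL-10 family, read 7.15 on the EG with phlorizin array and 10.14 on the EG array, beside 4.24 and 4.20. Il24 passed the filter only on arrays of EG without phlorizin, which favours a lower difference. Osmr, the receptor subunit for oncostatin M, read 12.46 and 14.45, beside 10.74 and 10.58. Osmr stood 1.88 above the control with EG and phlorizin, and Il24, which was not above background in the control, at least 1.47. Of the fibrinogen chains, Fgb differed by -2.30 and Fga by -0.39. Socs3, the feedback inhibitor of this pathway, differed by -0.52. Of 16 tested chemokine and recruitment genes, 1 was at least 1 higher and 1 at least 1 lower, near the 7.35% and 6.18% of all probe sets, with a median of -0.34. Ccl2, which draws monocytes, read 11.18 and 11.56, beside 8.46 and 8.06, and Ccl20, which draws CCR6-bearing lymphocytes, read 10.92 and 8.92, beside 10.06 and 8.90. Ccl20 was the higher one, at 2.00, and Ccl2 differed by -0.39 while 3.12 above the control.

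Of 22 tested cell cycle genes, 12 were lower by at least 1 and 1 higher, with a median of -1.06. Several of the lower genes passed the filter only on arrays of EG without phlorizin, which favours a lower difference. Among them were Ttk, Aurkb, Mcm6, Ccnb1, Mcm3 and Cdk1, so the count and the median cannot be read apart from the filter. Mki67, the proliferation antigen Ki-67, read 8.50 on the EG with phlorizin array and 10.95 on the EG array, beside 7.66 and 8.45. Rrm2, a ribonucleotide reductase subunit, read 7.84 and 9.73, beside 8.23 and 8.38. Mki67 and Rrm2 differed from the control by 0.06 and -0.53 with EG and phlorizin. The higher gene was Ccnd1, cyclin D1 (1.49). Of 17 tested annexins, keratins and related genes, 11 were at least 1 lower, with a median of -1.54.

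The lists of podocyte and endothelial markers held few genes at least 1 apart, at shares that so few genes cannot set apart from the 7.35% and 6.18% of all probe sets. None of the 9 tested podocyte markers was at least 1 apart, and their median was -0.02. Of 13 tested endothelial markers, 1 was at least 1 higher, the VEGF receptor Flt1 (1.30), with a median of 0.13, which both spike scalings turn negative. Pecam1, a defining endothelial marker, read 9.74 with EG and phlorizin and 9.82 with EG, beside 10.27 and 10.34. Of 10 tested markers of mesangial cells, pericytes and smooth muscle, 3 were at least 1 lower, among them Pdgfrb (-1.43), while Acta2, the muscle actin of smooth muscle and myofibroblasts, differed by -0.36. Another of the 3, Cnn1, and the list member Cspg4 passed the filter only on arrays of EG without phlorizin, which favours a lower difference.

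Genes of vitamin D, calcium, phosphate and oxalate handling were looked at because EG combines a source of oxalate with a vitamin D compound. Cyp24a1, which breaks down active vitamin D and is induced by it, read 16.59 on the EG with phlorizin array and 15.64 on the EG array, beside 13.52 on the phlorizin and 12.05 on the control array. It was the one gene among the 10 farthest above the control on the EG with phlorizin array that read higher there than on the EG array, by 0.95. The vitamin D receptor gene Vdr read 13.08 and 12.13, beside 12.48 and 12.32. The calcium channel Trpv5 and the buffer Calb1, both of the distal tubule, went opposite ways, with differences of -0.59 and 1.65. Of 14 tested genes of the group, 6 were at least 1 higher and none was at least 1 lower, with a median of 0.95, or -0.30 under the poly-A scaling.

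Among 11 tested phosphate genes, 4 were at least 1 higher and 1 was at least 1 lower. The lower one was Slc34a2, the sodium-phosphate cotransporter best known from intestine and lung, which read 11.09 on the EG with phlorizin array and 14.33 on the EG array, beside 7.87 and 7.59. The renal cotransporter genes Slc34a1 and Slc34a3 were 0.59 and 2.44 higher. So the cotransporters of the proximal tubule and Slc34a2 differed in opposite directions, and Slc34a1 turns negative under both spike scalings. Of 13 tested oxalate and glyoxylate genes, 7 were at least 1 higher and none was at least 1 lower. Grhpr, which turns glyoxylate into glycolate, read 15.61 and 13.79, beside 16.25 and 15.94. The sulfate and oxalate exchanger Slc26a1 read 14.13 and 12.52, beside 13.67 and 14.15. Hao2 and Agxt2 differed by 0.55 and -0.10, and the list median of 1.09 became -0.16 under the poly-A scaling and 0.64 with no filter on low values.

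Some genes lay far from the control on the EG with phlorizin array. Besides Havcr1, Spp1, Cyp24a1, Slc34a2 and Cfi, the genes highest above the control on the EG with phlorizin array by the values as deposited were Clu (3.93), the secreted lectin Reg3g, the tight junction protein Cldn4 (3.40), the macrophage glycoprotein Gpnmb (3.19) and Fga (3.18). Reg3g was not above background in the control and stood at least 2.60 above it, a bound that would place it 17th. Cldn4 read 10.96 on the EG with phlorizin array and 11.15 on the EG array, beside 8.32 and 7.56, so that it was nearly level with and without phlorizin in EG animals. Farthest below the control were Cyp2c24 (-3.47), the steroid-responsive factor Zbtb16 (-2.74), Qrfpr, the receptor Oxgr1 for 2-oxoglutarate (-2.15), the retinoid receptor Rxrg (-2.15), Bphl (-1.96), Apcs (-1.93), Akr1c2 (-1.88), Klk1c10 (-1.88) and Hrg (-1.85). Oxgr1, which intercalated cells use, read 10.84 and 8.79, beside 12.56 and 12.99. Cyp2c24 read 6.12 on the EG with phlorizin array and was not above background on the EG array, beside 10.71 and 9.59. Qrfpr was not above background on either array of EG animals.

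The same contrast in the outer medulla gave 441 higher (3.35%) and 571 lower (4.34%) on 2 other arrays. Across 13163 probe sets its differences and those of the cortex correlated at r = 0.35 (Spearman's rho 0.32), as a description over probe sets of arrays that can share animals. Of the 967 probe sets higher in the cortex, 152 were higher in the outer medulla, which is 15.7% of the cortex list and 34.5% of the outer medulla list, and 71 were at least 1 lower there. Of the 814 lower in the cortex, 225 were lower in the outer medulla, which is 27.6% of the cortex list and 39.4% of the outer medulla list, and 3 were at least 1 higher there. Over all tested probe sets the cortex shares were 7.35% higher and 6.18% lower. Among the lower genes, Lcn2 had differences of -4.35 (cortex) and -4.63 (outer medulla), Cdh6 by -2.99 and -2.34, and the collagen and matrix list had medians of -2.08 and -1.38.

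Many genes of the thick ascending limb and of intercalated cells were also higher in the outer medulla, with list medians of 1.17 and 1.15 there. At least 1 higher were 7 of 12 and 8 of 15, and none was at least 1 lower. Foxi1 differed by -0.45 in the outer medulla, and Slc26a4 was not above background there with EG and phlorizin. Proximal tubule lists had medians below 0 there, taken from values as deposited. Several members were not above the background means of 5.66 (EG with phlorizin) and 5.59 (EG) there, Slc5a2 and Slc6a19 among them. Their differences there do not measure a change of expression. With a background floor the straight proximal tubule median there was still -1.04, and no floored median is given for the other lists. The median for the straight proximal tubule was 1.58 in the cortex, against -1.04 in the outer medulla, for amino acid breakdown 1.53 against -0.31, and for organic ion transporters 1.0 against -0.74. Slco1a6 read 9.62 on the EG with phlorizin array and 11.28 on the EG array of the outer medulla, a difference of -1.66 against 5.08 in the cortex. Dao, the peroxisomal D-amino acid oxidase, read 16.19 and 14.55 in the cortex, against 6.38 and 8.39 in the outer medulla. Apom, a lipid carrier protein, read 13.73 and 10.997 in the cortex. Its outer medulla value was not above background with EG and phlorizin and was 6.11 with EG. Lpl, lipoprotein lipase, ran the other way, with 9.81 and 12.48 in the cortex, against 14.43 and 12.70 in the outer medulla. None of these opposite differences was tested.

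**Figure D5:**
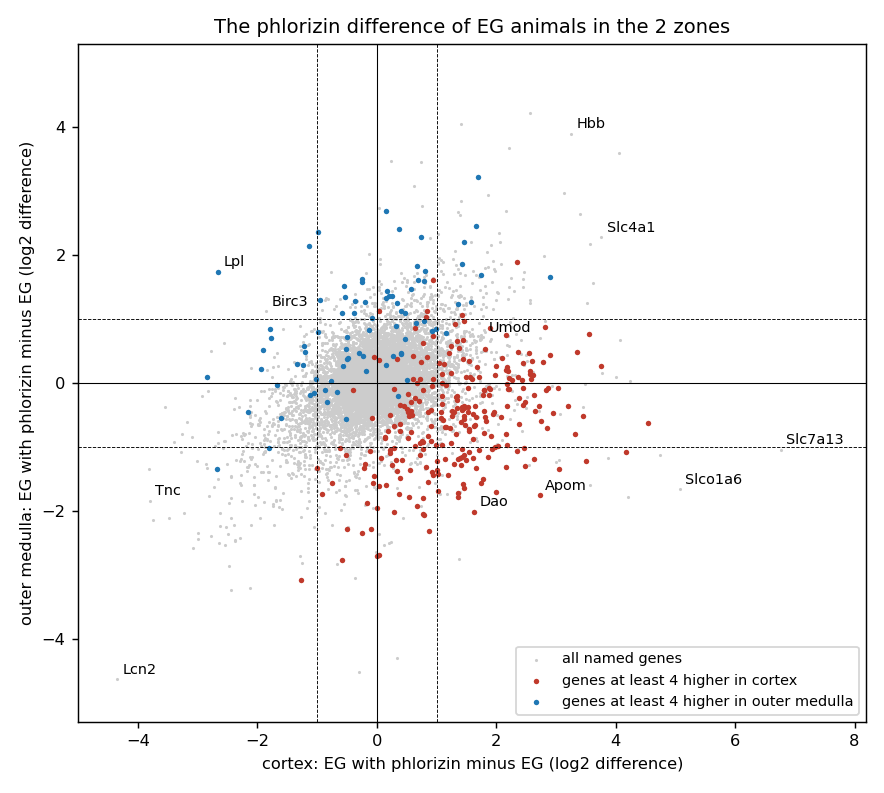
Difference of EG with phlorizin minus EG in the cortex (horizontal axis, log2) against that for the outer medulla (vertical axis, log2) of each named gene. Red points are genes at least 4 higher in the cortex than in the outer medulla on both the control and the phlorizin arrays, blue points genes at least 4 higher in the outer medulla, and dashed lines mark a difference of 1. The red points lie mostly to the right of 0 and below it, and the blue points mostly above 0.

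The cortex difference ran along the difference between the zones for most cortex genes, and far less for outer medulla genes. Genes of the cortex, taken as the 322 probe sets at least 4 higher there than in the outer medulla on the control arrays and on the phlorizin arrays, were at least 1 higher in 212 cases (65.8%) and at least 1 lower in 2, against 7.35% and 6.18% of all probe sets. Their median level was 13.40 on the EG with phlorizin array and 11.90 on the EG array, beside 13.90 and 13.80 on the phlorizin and control arrays. The 98 probe sets of the outer medulla, chosen the same way, were at least 1 higher with EG and phlorizin in 10 cases (10.2%). They were at least 1 lower in 19 (19.4%), so both shares lay above those of all probe sets. Their median difference was -0.15, against -0.04 over all tested probe sets. Their median levels were 8.13 and 7.99, beside 7.76 and 7.67. So on the cortex array of EG most cortex genes were low, and more of the outer medulla genes were at least 1 high than at least 1 low against EG with phlorizin. Across all tested probe sets, the cortex difference correlated with outer medulla minus cortex, averaged over the 4 arrays without EG, at r = -0.44 (rho -0.40), and the outer medulla difference at 0.29 (rho 0.24). How the kidneys were divided on each occasion was not tested.

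Phlorizin without EG gave smaller differences. Its differences in the cortex correlated with those in EG animals at r = 0.08 (rho 0.06) over 13163 probe sets, on arrays that the 2 comparisons do not share. Of the 967 higher probe sets 16 were higher and 7 at least 1 lower with phlorizin alone, and of the 814 lower ones 14 were lower and 10 at least 1 higher. The 16 are 1.65% of the first list and 18.6% of the 86, and the 14 are 1.72% of the second list and 21.2% of the 66. Over all tested probe sets, 0.653% were higher and 0.501% lower with phlorizin alone, and 7.35% and 6.18% in EG animals. Slc7a12 was 1.23 higher and Tff3 1.05 higher with phlorizin alone, beside 4.08 and 3.56 in EG animals. Scd2, a fatty acid desaturase, read 11.08 with EG and phlorizin and 13.20 with EG, beside 11.79 with phlorizin and 10.66 in the control, so that the 2 differences were -2.13 and 1.13. Hbb, a beta globin gene, read 11.12 and 7.86, beside 10.75 and 12.04. Whether the differences with and without EG themselves differ was not tested.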

How the data were processed

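RNA of 8 kidney samples was hybridised to Clariom S rat arrays. The deposited log2 expression values were made by the authors with RMA, per the submitters' processing notes, and the log2 base was inferred from their range of 2.28 to 19.7. No version of RMA is named in them. Values were used as deposited. Of 24834 rows, 1646 control rows were left out, and 15049 of 23188 transcript probe sets had 1 gene symbol from the platform's annotation, each found in RefSeq by its gene ID. A probe set was kept if at least 1 array showed it at or above the median of the whole table (7.54). Some probe sets passed only on arrays of EG without phlorizin, which favours a lower difference for them. They are part of the lower counts and of the list medians. After 7 second probe sets of a gene were left out, 13163 remained, 9315 with a symbol. For genes described as not above background, the difference was taken from the mean of the array's 23 background probes and given as a bound. Counts, rankings, list medians and correlations used the values as deposited. Among the lower probe sets, 23 were at or below background with EG and phlorizin, and among the higher ones 19 were with EG. The number of arrays limits the precision.

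With 1 array a side no test was run. The genes named are the sugar transporters Slc5a1, Slc5a2, Slc2a1 and Slc2a2, the 20 largest differences in each direction outside uncharacterised loci, members of the 56 gene lists (16 of cell types) where the list is given, the 5 in each direction with opposite differences between zones or with and without EG, and the 10 in each direction farthest from the control. The comparison, lists and rules were chosen with earlier results of these data known. The zone genes were chosen after the data were seen. The scripts were tested on simulated data. Alternatives covered the normalization, spike scaling, filter, background floor, probe sets of a gene and size threshold. The software was numpy 2.4.6 and pandas 2.3.3 under Python 3.11.15, with figures drawn by matplotlib 3.10.9.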

Additional observations from a re-analysis of the deposited data

Results flagged for a closer look

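The results below went opposite ways in 2 comparisons, with both deposited differences at least 1 in size, and none of these contrasts was tested. Between the zones, the difference of EG with phlorizin minus EG was larger in the cortex than in the outer medulla by 7.81 for Slc7a13, 6.74 for Slco1a6, 5.997 for Slco1a3, 5.88 for Hnmt, 5.25 for Slc22a22, 5.16 for Tff3, 5.05 for Gclc, 4.72 for Aspdh, 4.48 for Apom, 3.69 for the brush border protease Mep1a and 3.65 for Dao. Aspdh and Apom were not above background in the outer medulla with EG and phlorizin. Against background their outer medulla differences were -0.60 and -0.45, under 1 in size, and their contrasts 4.09 and 3.18. For the straight proximal tubule list, the medians lay 2.62 apart in the same direction. The zone contrast was -4.40 for Lpl and -2.98 for Birc3, an inhibitor of cell death. In the cortex, the difference in EG animals less that of phlorizin minus control was 4.55 for Hbb, 2.68 for Stk32a, 2.48 for Bphl and 2.32 for Gadd45g. It was -4.13 for Vstm2b, -3.26 for Scd2, -3.15 for Scel, -2.34 for the fibroblast marker Mfap4 and -2.32 for Tead2. Scel and Tead2 were not above background in the control, and against background their differences without EG were 0.69 and 0.59, under 1 in size, and their contrasts -2.66 and -1.79.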

How the results depend on the processing

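No paired analysis was possible because each group has 1 array. No leave-one-out value exists either, so no count can be given without the cortex array of EG. The counts of 967 higher and 814 lower probe sets were 974 and 810 with array medians centred, 974 and 812 with quantile normalization, 959 and 804 with a background floor, 1016 and 1058 with no filter, and 849 and 656 with a filter on the mean. At sizes of 1.5 and 2 they were 385 and 313, and 177 and 131. Hybridisation scaling gave 317 and 3458, and poly-A scaling 123 and 9050, by their construction, since they shift all differences. Poly-A scaling turned the medians of fatty acid oxidation (-0.23), organic ion transporters (-0.25) and oxalate genes (-0.16). Of 19 list medians at least 1 in size, 7 came under 1 with hybridisation scaling, 6 with poly-A scaling besides the 3 that turned, 4 with quantile normalization, 6 with no filter and 1 with a filter on the mean. With no filter the stone matrix median was -0.51 and the oxalate median 0.64, which are among the 6. The rest of the 6 are not named here. The red cell median was 1.14 with no filter, so it stayed above 1. The differences of the 44 genes named for size or as targets moved by at most 0.25 under centring and quantile normalization, and averaging probe sets moved none of them. Dim genes are limited by background.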

Other observations

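Other gene groups in the cortex differed between EG with phlorizin and EG mainly in single members. Of 14 tested circadian clock genes, 4 were at least 1 higher and none was at least 1 lower, with a median of 0.67, which the poly-A scaling turns negative. Tef, a transcription factor of the clock's output, read 9.35 on the EG with phlorizin array and 7.17 on the EG array, beside 9.73 and 9.51 on the phlorizin and control arrays, while Bmal1, a core factor, read 6.71 and 7.26, beside 7.52 and 8.46. The hours at which the kidneys were taken were not used here. Of 23 tested genes of NRF2 targets and glutathione, 6 were at least 1 higher and 1 was at least 1 lower, beside 7.35% and 6.18% of all probe sets. The single lower gene is near that share. Beside Gclc, the 6 include Sod1 (1.43), catalase (Cat, 1.20) and Gsta1 (1.59), and the lower one was Gpx2 (-1.22). Hmox1 and Srxn1, commonly induced targets of NRF2, differed by 0.57 and 0.08.

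Among 21 tested cadherin, connexin and junction genes, 3 lay at least 1 above 0 and 4 at least 1 below. The connexins split, with Gja1 at 12.65 on the EG with phlorizin array and 15.29 on the EG array, beside 11.89 and 11.32, and Gjb2 at 10.63 and 7.32, beside 11.41 and 11.11. Of 19 tested interferon and antigen presentation genes, 5 were at least 1 lower and 1 was at least 1 higher, beside 6.18% and 7.35% of all probe sets. The single higher gene is near that share. The immunoproteasome subunits Psmb8, Psmb9 and Psmb10 differed by -1.15, -1.02 and -1.24, whereas Ifit3, an interferon-induced gene, differed by 1.07. Of 12 tested genes of cholesterol synthesis, 2 were at least 1 higher, and of 15 tested glucocorticoid-responsive genes, 2 were at least 1 lower, Lcn2 among them. The metallothionein Mt2A read 19.64 and 19.65, beside 19.63 and 19.65. These values lie near the highest of the whole table, 19.7, and whether the signal was saturated was not tested. Among 20 tested tubule transcription factors, 3 were at least 1 higher. These were Ppara, Sim1 (1.33) and Esrrb, which was not above background on the EG array. Hnf4a and Pax8 differed by 0.54 and -0.78.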
